A study of Homo sapiens with 4 samples.

Results

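The mRNAs of 10 genes that synthesise and join DNA at the replication fork were followed in RNA immunoprecipitation sequencing (RIP-seq) of FLAG-tagged ORC1, a subunit of the complex that marks replication origins. The genes encode the catalytic subunits and selected partners of the 3 replicative DNA polymerases (POLA1, POLA2, PRIM1, POLD1, POLD3, POLE and POLE2), the sliding clamp PCNA, the large clamp loader subunit RFC1 and DNA ligase 1 (LIG1). They were listed by name with earlier results of these data known, and each matched 1 row of the 63677 genes in the count table through its Ensembl identifier in GENCODE v44. All 10 passed the filter on low counts and were among the 14645 genes tested.

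All 4 libraries came from nuclei of asynchronous HCT116 cells, an established human colorectal carcinoma line, 48 h after transient transfection with a plasmid for ORC1 carrying a 3xFLAG tag. The ORC1-FLAG IP group (2 libraries, replicates 1 and 2) is RNA recovered with an anti-FLAG antibody from non-crosslinked nuclear lysate, and the Input group (2 libraries, replicates 1 and 2) is RNA of the matching lysates. Both groups therefore carry the transfected, overexpressed protein, whose cDNA was codon-optimised according to the study's methods, and setting IP against Input asks which RNAs of the nucleus come down with it. The study's methods call the pairs of libraries duplicate experiments, and the labels do not say that the replicates were separate cultures, so p values measure the spread between these libraries and part of that spread may be technical. Libraries with a control antibody or from untransfected cells were not analysed here, so recovery on beads or antibody alone was not measured. The cells were not sorted by cell cycle phase, and in such bulk material the share of cells that express a gene and the RNA per cell cannot be told apart.

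Replication forks copy DNA with a division of labour. DNA polymerase alpha and its primase lay down short RNA-DNA primers, polymerase epsilon extends the leading strand, and polymerase delta extends the Okazaki fragments of the lagging strand. The ring-shaped clamp PCNA, opened and closed around DNA by the replication factor C (RFC) complex, holds the polymerases on their template, and LIG1 seals the nicks between finished fragments. These proteins are best known as nuclear enzymes of S phase. The measurements here concern their mRNAs and not the proteins.

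The sequences shown here are runs of the triplet GAA, which the study found enriched in RNAs recovered with ORC1. From the positions of ORC1 crosslinks on RNA and from gel-shift assays, the study held that ORC1 does not bind RNA through these repeats. Fixed strings were counted here, while the study used a motif search. The nonamer GAAGAAGAA, searched on the sense strand of the canonical transcript, occurred once each in POLA1, POLA2 and POLE and in none of the other 7 mRNAs. It was present in 14.8% of the canonical transcripts of the 12542 protein-coding genes tested. The 3 sites lie in coding sequence and are shown with the nonamer in capitals and with their GRCh38 coordinates, for POLA1 chrX:24716382-24716420 (plus strand, exon 7), for POLA2 chr11:65267564-65268705 (plus strand, across the junction of exons 3 and 4, so that the interval includes an intron) and for POLE chr12:132679530-132679568 (minus strand, exon 6).
POLA1: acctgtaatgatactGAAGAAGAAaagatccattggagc
POLA2: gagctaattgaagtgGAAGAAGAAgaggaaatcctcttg
POLE: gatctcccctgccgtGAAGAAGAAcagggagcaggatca

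To show how members without the nonamer differ, the stretch of 60 coding bases with the most GAA triplets is printed for all 7, with each GAA in capitals. RFC1 and LIG1 were enriched in the IP without a nonamer, and their stretches hold 8 and 7 triplets at chr4:39351384-39351443 (minus strand, exon 2 of 25) and chr19:48151320-48153911 (minus strand, exons 6 and 7 of 28).
RFC1: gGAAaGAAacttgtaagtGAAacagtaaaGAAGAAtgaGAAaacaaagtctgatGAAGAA
LIG1: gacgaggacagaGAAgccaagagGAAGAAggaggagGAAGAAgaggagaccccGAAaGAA
POLD1, PCNA, POLE2, PRIM1 and POLD3 were not called enriched. The densest stretches of the first 3 hold 3, 5 and 4 triplets at chr19:50402475-50402534 (plus strand, exon 7 of 27), chr20:5118615-5118674 (minus strand, exon 3 of 6) and chr14:49683636-49688137 (minus strand, exons 1 and 2 of 19).
POLD1: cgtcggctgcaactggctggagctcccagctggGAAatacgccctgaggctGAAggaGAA
PCNA: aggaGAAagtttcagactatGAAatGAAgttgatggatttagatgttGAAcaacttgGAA
POLE2: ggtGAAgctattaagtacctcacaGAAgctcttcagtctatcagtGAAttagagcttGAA
Those of PRIM1 (chr12:56738459-56738518, minus strand, exon 11 of 13) and POLD3 (chr11:74629242-74629301, plus strand, exon 9 of 12) hold 6 triplets each, as many as the densest stretches of the called POLA1 and POLE, so this count does not divide called from uncalled members.
PRIM1: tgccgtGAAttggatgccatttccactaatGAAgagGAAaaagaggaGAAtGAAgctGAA
POLD3: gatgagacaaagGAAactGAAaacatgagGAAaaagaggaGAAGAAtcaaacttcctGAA

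4 kinds of value describe each mRNA. Its level is given as CPM, the count relative to the library total after edgeR's TMM scaling (TMM-scaled CPM), its replicate ratio as log2 of IP over Input with 0.5 CPM added to each, its log2 fold change with standard error (SE) from edgeR's quasi-likelihood test over all tested genes, and its adjusted p by the Benjamini-Hochberg method over the same genes. A gene was called enriched or depleted at an adjusted p below 0.05 together with a log2 fold change above 1 or below -1.

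Of the 10 mRNAs, RFC1, POLA1, LIG1 and POLE were called enriched in the ORC1-FLAG IP, between 3.03-fold (POLE) and 4.36-fold (RFC1), and none was called depleted. By the same rule 10.5% of all tested genes were enriched and 8.30% depleted. The other 6 (POLD3, POLD1, PRIM1, POLA2, PCNA and POLE2) were not called. Without the fold criterion, POLD3 and POLD1 also passed an adjusted p of 0.05, which makes 6 of 10 higher and 0 lower against 13.0% and 9.96% of all tested genes. That count rests on the fit, since the adjusted p of POLD1 lay at 0.0507 to 0.196 with RLE or upper-quartile scaling, no count filter, DESeq2 or limma voom and at 0.0668 to 0.253 on leaving out any 1 library. With library size only, edgeR's adjusted p was 0.530 for POLD1 and 0.217 for POLD3. Without a count filter that of POLD3 was 0.0652. The log2 fold change of POLD3 was 0.74 without ORC1-FLAG IP replicate 1 and 0.75 without Input replicate 2. At an unadjusted p below 0.05 edgeR counted 7 members higher and 0 lower, against 21.0% and 17.8% of all tested genes, and DESeq2 and limma voom also called 0 depleted. For 9 of the 10 mRNAs both IP libraries lay above both Input libraries, an order found in 33.2% of tested genes, and for POLE2 both lay below, the order of 31.9%. The median log2 fold change of the 10 was 0.87, beside 0.01 over all tested genes, whose interquartile range was -0.62 to 0.62.

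**Figure D1:**
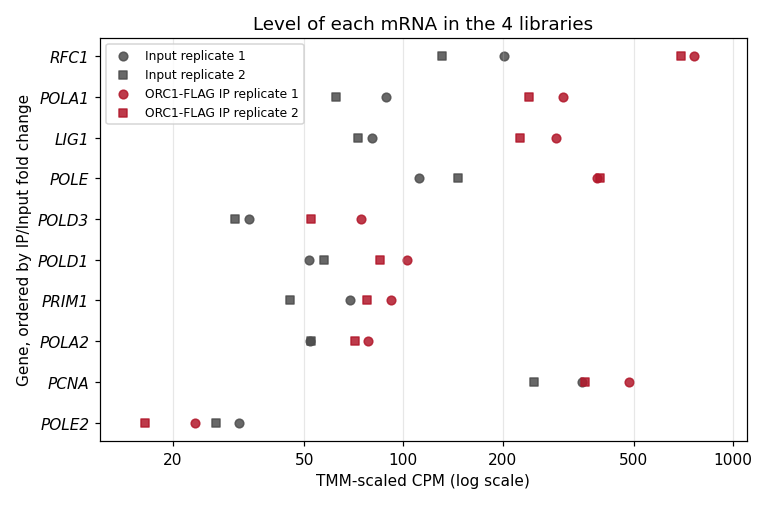
TMM-scaled CPM (log scale) of each mRNA in the 4 libraries, with genes ordered from the highest to the lowest edgeR fold change. Red symbols are the ORC1-FLAG IP and grey symbols the Input libraries, circles replicate 1 and squares replicate 2. The IP symbols of RFC1, POLA1, LIG1 and POLE sit far to the right of their Input symbols, the red square of PCNA at 356 nearly touches the grey circle at 348, and those of POLE2 lie to the left.

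The replicate number pairs each Input with the IP made from it, and a fit with that number as a block passed an adjusted p of 0.05 for all 10 mRNAs, 9 higher and POLE2 lower. In that fit 28.7% of tested genes were higher and 25.6% lower. Its adjusted p was 0.0116 for POLA2, 0.00618 for PRIM1, 0.0196 for PCNA and 0.00842 for POLE2, the 4 members that did not pass without the block. With the fold criterion the blocked fit called the same 4 members enriched and 0 depleted, where it called 13.4% of tested genes enriched and 13.4% depleted.

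POLA1 is the catalytic subunit of DNA polymerase alpha and lies at chrX:24693873-24996986 on the plus strand. Its level was 305 and 241 CPM in the IP libraries and 88.5 and 62.5 CPM in the Input libraries, so the groups were far apart. The replicate log2 ratios were 1.78 and 1.94, and the log2 fold change of 1.85 ± 0.29 (SE, with 2 libraries in each group) passed the test (adjusted p = 0.0117). The level was 3.61-fold higher in the IP. POLA2, the accessory B subunit of the same polymerase, lies at chr11:65261913-65305959 (plus strand). It was at 78.1 and 71.1 CPM in the IP and at 51.9 and 52.5 CPM in the Input, groups that did not overlap but lay close together. Its replicate log2 ratios of 0.58 and 0.43 gave a log2 fold change of 0.51 ± 0.21, which did not pass the test (adjusted p = 0.123). Exons of POLA2 share 2012 bases on the same strand with ENSG00000285816 in GENCODE v44, which was not analysed here.

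PRIM1, the catalytic subunit of the primase that makes the RNA part of the primer, lies at chr12:56730438-56752374 on the minus strand. It was at 91.8 and 77.8 CPM in the IP and at 68.9 and 45.2 CPM in the Input, with the Input libraries farther from each other than the nearest IP and Input libraries were. The log2 fold change was 0.57 ± 0.27 (adjusted p = 0.172), from replicate log2 ratios of 0.41 and 0.78. A 139-base stretch of PRIM1 exons is shared on the same strand with exons of NACA, a gene with 25475 and 13997 counts in the IP and 8713 and 3007 in the Input, and how the authors' counting assigned reads of that stretch is not stated. A further 362 bases are shared on the same strand with ENSG00000285625, which was not analysed here. PRIM1 exons also overlap 132 bases of HSD17B6 on the opposite strand, which had at most 52 counts in any library. The fourth subunit of the polymerase alpha-primase complex, PRIM2, is not among the members and is named because the complex is incomplete without it. Its log2 fold change was -0.52 ± 0.22 (adjusted p = 0.130, and 0.0106 with the replicate block), with both IP libraries below both Input libraries. Of the 4 subunits, POLA1 was the only one called enriched.

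POLD1, the catalytic subunit of polymerase delta, lies at chr19:50384204-50418018 on the plus strand. It was at 103 and 84.8 CPM in the IP and at 51.8 and 57.5 CPM in the Input, without overlap. The replicate log2 ratios were 0.98 and 0.56, and the log2 fold change of 0.78 ± 0.23 passed the test at the edge of the threshold (adjusted p = 0.0498) but not the fold criterion. POLD3, an accessory subunit through which polymerase delta binds PCNA, lies at chr11:74493851-74669117 (plus strand). It was at 74.5 and 52.5 CPM in the IP and at 34.0 and 30.8 CPM in the Input, again with both IP libraries higher. Its replicate log2 ratios of 1.12 and 0.76 lay on either side of the fold criterion. The log2 fold change was 0.97 ± 0.25 (adjusted p = 0.0357), just inside the limit of 1, and POLD3 was the uncalled member nearest to the fold criterion. It was called in 4 of the 14 alternative fits, among them those without Input replicate 1 (1.08) and without ORC1-FLAG IP replicate 2 (1.25). Its exons share 123 bases on the same strand with LIPT2-AS1, which had 12 to 47 counts per library, against 360 to 1551 for POLD3. POLD1 shares 426 exonic bases on the same strand with ENSG00000142539, which had 0 counts in all 4 libraries.

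POLE, the catalytic subunit of polymerase epsilon, lies at chr12:132623753-132687376 on the minus strand. It was at 387 and 394 CPM in the IP and at 111 and 146 CPM in the Input, so the IP libraries stood close together and far above. The replicate log2 ratios were 1.79 and 1.42, with a log2 fold change of 1.60 ± 0.26 (adjusted p = 0.0125). POLE2, the B subunit bound to POLE in the same enzyme, lies at chr14:49643555-49688422 on the minus strand. It was the member with the lowest level in CPM, not corrected for length. It was at 23.3 and 16.4 CPM in the IP and at 31.6 and 27.0 CPM in the Input, with both IP libraries below both Input libraries. Its replicate log2 ratios were -0.43 and -0.70 and its log2 fold change was -0.56 ± 0.26, a 1.48-fold lower level in the IP that did not pass the test (adjusted p = 0.156). POLE2 had 289 to 552 counts per library, the fewest of the 10.

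PCNA lies at chr20:5114953-5126626 (minus strand). It was at 484 and 356 CPM in the IP and at 348 and 249 CPM in the Input, with the second IP library only just above the first Input library. Because both libraries of replicate 2 were lower than those of replicate 1, the replicate log2 ratios were nevertheless alike, at 0.48 and 0.52. The log2 fold change of 0.50 ± 0.30 did not pass the test (adjusted p = 0.261). The pseudogenes PCNAP1, PCNAP3 and PCNAP4 held 1, 1 and 0 counts over all libraries, so few reads were assigned to these copies.

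RFC1, the large subunit of the clamp loader, lies at chr4:39287456-39366375 on the minus strand and had the highest IP level in CPM and the highest fold change of the 10. It was at 762 and 694 CPM in the IP and at 202 and 131 CPM in the Input. The replicate log2 ratios were 1.91 and 2.40, and the log2 fold change was 2.13 ± 0.31 (adjusted p = 0.0107). Of all tested genes, 99.3% had a lower fold change. LIG1, at chr19:48115445-48170603 (minus strand), was at 291 and 226 CPM in the IP and at 80.4 and 73.0 CPM in the Input, with no overlap. Its replicate log2 ratios were 1.85 and 1.62 and its log2 fold change was 1.75 ± 0.25 (adjusted p = 0.0107), a 3.37-fold higher level. An unnamed gene on the opposite strand, ENSG00000269534, shares 425 exonic bases with LIG1 and had at most 2 counts in a library.

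**Figure D2:**
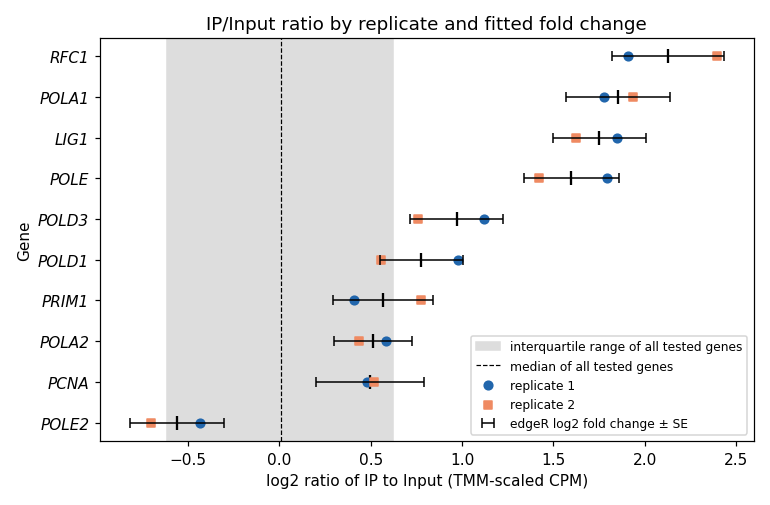
Log2 ratio of IP to Input for each mRNA in replicate 1 (circles) and replicate 2 (squares), with the edgeR log2 fold change and its SE as a bar. The grey band and dashed line are the interquartile range and median over all tested genes. RFC1, POLA1, LIG1 and POLE lie between 1.42 and 2.40 in both replicates, and POLE2 lies below 0 in both.

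The order of the 10 by fold change was RFC1, POLA1, LIG1, POLE, POLD3, POLD1, PRIM1, POLA2, PCNA and POLE2. Between neighbours in that order, the replicate ratios of POLE and POLD3 did not overlap, nor did those of PCNA and POLE2. The ranges of all other neighbours overlapped. Within replicates, RFC1 lay above POLA1, LIG1 above POLE and POLD3 above POLD1 both times, which was not tested. The remaining overlapping neighbours changed order between replicates, so their order is not resolved by these libraries. Of members farther apart, RFC1 lay above LIG1 and POLE in both replicates, and POLD3 above POLA2 and PCNA. In replicate 1, however, RFC1 (1.91) and LIG1 (1.85) were close, with 95% half-widths from counting error of 0.053 and 0.084. The replicates differed by 0.04 (PCNA) to 0.49 (RFC1) on the log2 scale, while the 95% half-width from counting error alone ran from 0.046 to 0.23. The median ratio of the members was 1.05 in replicate 1 and 0.77 in replicate 2, against 0.05 and -0.02 over all tested genes, and 4 of the 10 had the higher ratio in replicate 2.

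Partners at the fork, within an enzyme or beside the clamp, can be compared inside each replicate, where the difference between their log2 ratios does not depend on the scaling between libraries. In all 6 such pairs were formed. With 2 replicates per group, the smallest p of an exact permutation test that ignores the pairing of libraries is 0.333. Only the differences and their 95% intervals from counting error are therefore given. POLE exceeded POLE2 by 2.24 (2.05 to 2.43) in replicate 1 and by 2.14 (1.90 to 2.39) in replicate 2. In counts, POLE had 3.53 and 5.41 reads for each POLE2 read in the Input libraries and 16.6 and 23.9 in the IP libraries, so the make-up of this pair shifted towards the catalytic subunit in both replicates. POLA1 exceeded POLA2 by 1.20 (1.05 to 1.34) and 1.51 (1.33 to 1.69).

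The primase subunit PRIM1 also lay below POLA1, by 1.37 (1.24 to 1.50) in replicate 1 and 1.16 (0.98 to 1.35) in replicate 2. For the loader and the clamp, read counts not corrected for length changed order, since RFC1 had 0.58 and 0.53 reads per PCNA read in the Input libraries but 1.57 and 1.95 in the IP libraries. On the log2 scale RFC1 exceeded PCNA by 1.44 (1.37 to 1.50) and 1.88 (1.78 to 1.98). For LIG1 and PCNA the difference was 1.38 (1.28 to 1.47) and 1.11 (0.99 to 1.24). POLD1 and POLD3 were the exception among the pairs, with differences of -0.15 (-0.33 to 0.03) and -0.21 (-0.43 to 0.01), whose intervals included 0.

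Levels between genes were compared per kilobase of canonical transcript, as the mean of the 2 libraries of a group. In the Input, PCNA stood highest at 234 CPM per kb, 5.83 times the next gene, PRIM1, at 40.1 CPM per kb. RFC1 (34.2 CPM per kb) and LIG1 (24.5) followed. POLE2 (17.3), POLE (16.5), POLD1 (15.9), POLA2 (14.7) and POLA1 (13.8) lay close together, and POLD3 was lowest at 8.55 CPM per kb. POLE and POLE2, and likewise POLA1 and POLA2, were thus at similar levels per length in the nuclear lysate. In the IP the levels of PCNA (329.5 CPM per kb), RFC1 (149) and LIG1 (82.7) were the highest, followed by PRIM1 (59.6). POLE (49.9) and POLA1 (49.7) stood above POLD1 (27.3), POLA2 (21.0), POLD3 (16.8) and POLE2 (11.7). PCNA, the most abundant per length in both groups, was not among the called mRNAs.

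The members differ widely in size. The coding sequences of the 4 called mRNAs had a median length of 3922.5 bases, and those of the 6 others a median of 1489.5. POLE (6858 bases) and POLA1 (4404) had the longest, followed by RFC1 (3441), POLD1 (3321) and LIG1 (2757), and all 4 called genes came from these 5. POLA2 (1794 bases), POLE2 (1581), POLD3 (1398), PRIM1 (1260) and PCNA (783) had the shorter ones. Across the 10 genes Spearman's rank correlation between coding length and log2 fold change was 0.71, and it was 0.71 and 0.59 with the ratios of replicates 1 and 2. This is a description over genes measured in the same libraries, without a test.

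A similar relation held over the whole table, with a rank correlation of 0.59 across the 12542 protein-coding genes tested. In the longest decile of coding length, which holds POLA1 and POLE, 46.6% of genes were enriched and the median log2 fold change was 1.07. In the decile below, which holds RFC1, POLD1 and LIG1, 24.0% were enriched and the median was 0.64. Set against their own decile, 9 of the 10 members lay above its median and POLE2 below it. RFC1 exceeded 98.6% of the genes in its decile, LIG1 95.8%, POLD3 91.8% and POLA1 90.1%. POLE, also called, exceeded 80.2% of its decile, while PRIM1 exceeded 82.2% and POLA2 63.7%. POLD1 exceeded only 60.5% of genes of like coding length, and POLE2 only 16.8%. PCNA, although not called, exceeded 85.8% of its decile, whose median was -0.36.

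**Figure D3:**
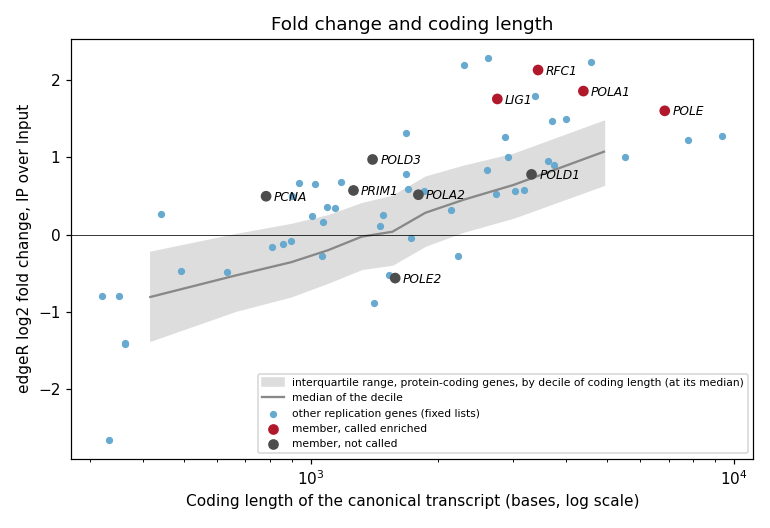
edgeR log2 fold change (IP over Input) against coding length of the canonical transcript in bases (log scale). Red points are the 4 called members, dark grey points the other 6 and blue points 48 other replication genes; the grey line and band are the median and interquartile range of the deciles of all tested protein-coding genes, each placed at its median length. The decile medians run from -0.81 in the shortest to 1.07 in the longest decile. RFC1, LIG1, POLA1, POLE, POLD3, PRIM1 and PCNA lie above the interquartile range of their decile, POLA2 and POLD1 within it, and POLE2 below it.

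The shorter hexamer GAAGAA was more frequent in some members than in others. The 4 called mRNAs held 15 (POLE), 8 (POLA1), 8 (RFC1) and 4 (LIG1) occurrences, counting overlapping matches. Among the uncalled mRNAs POLD3 held 4, POLA2 held 3, PRIM1 held 2, POLE2 and PCNA held 1 each, and POLD1 held 0, although its coding sequence is nearly as long as that of RFC1. The hexamer occurred in 9 of 10 members and in 82.4% of tested protein-coding transcripts, so its presence does not set the members apart. Of the 3 mRNAs with the longer nonamer, POLA1 and POLE were called and POLA2 was not, while RFC1 and LIG1 were called without it. Across the 10 genes the rank correlation of hexamer number with log2 fold change was 0.78, beside 0.71 for coding length. The order was reversed in larger sets. Over the 10 members and 48 other replication genes, hexamer number gave 0.64 and coding length 0.78. Over the 12542 protein-coding genes tested, hexamer number gave 0.40 and coding length 0.59. The separate parts of length and hexamer number in these values were not tested.

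The remaining subunits of the same enzymes were read from a list of 9 genes, all tested. None was called in either direction by the reported fit. With upper-quartile scaling edgeR called POLD2 depleted (-1.05, adjusted p = 0.0185). With library size only it called PRIM2 (-1.13), POLD2 (-1.49) and POLE4 (-1.40) depleted. In the reported fit the median log2 fold change of the list was -0.28. The median was -0.042 without Input replicate 1 and -0.073 without ORC1-FLAG IP replicate 2, and without Input replicate 2 the fit called POLD2 depleted (-1.28). RFC5 (0.65) and RFC4 (0.36), small subunits of the clamp loader, were highest, and POLD2 (-0.88, adjusted p = 0.0585) and POLD4 (-0.80), accessory subunits of polymerase delta, were lowest. With the replicate block, 1 of the 9 was higher and 3 were lower at an adjusted p below 0.05. In that fit 28.7% of all tested genes were higher and 25.6% lower. The median coding length of the 9 subunits was 1062 bases, shorter than that of every member except PCNA. Within the RFC complex, RFC1 was therefore the only subunit called among the 5 measured.

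The lists below stand beside 10.5% enriched and 8.30% depleted over all tested genes. Of 11 genes for Okazaki fragment processing, single-strand binding and DNA topology, 2 were enriched and 1 depleted, with a median of 0.34. That median was -0.090 without ORC1-FLAG IP replicate 1, 0.73 without ORC1-FLAG IP replicate 2, 0.54 without Input replicate 1 and 0.048 without Input replicate 2. The enriched ones were the topoisomerases TOP2A (2.23 ± 0.32, adjusted p = 0.0107) and TOP1 (2.19 ± 0.29, adjusted p = 0.0105), which relieve supercoils and tangles around the fork. RPA3, the smallest subunit of the single-strand binding protein RPA, was the depleted one (-1.40 ± 0.28, adjusted p = 0.0180), and RNASEH2C followed at -0.47 without a call. Among 13 genes of the fork scaffold, fork protection and alternative clamp loaders, 5 were enriched and 2 depleted, with a median of 0.96 (0.55 without Input replicate 2). The highest were MCM10 (2.28 ± 0.30), which acts in helicase activation, and WDHD1 (1.80 ± 0.28), a scaffold that binds polymerase alpha. The lowest were PCLAF (-2.65 ± 0.38), a small PCNA-binding protein, and CHTF8 (-1.41 ± 0.23), a small subunit of an alternative clamp loader.

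Among 15 translesion, repair and mitochondrial polymerases and other ligases, 4 were enriched and none depleted, with a median of 0.53 (0.28 without Input replicate 2). POLG (1.46 ± 0.23), the mitochondrial polymerase encoded in the nucleus, and PRIMPOL (1.31 ± 0.27), a repriming enzyme, were highest. MAD2L2 (-0.48) and POLI (-0.28) were lowest and were not called. Together 11 of the 48 genes in the 4 lists were enriched and 3 depleted, with a median log2 fold change of 0.51. Of the 10 members, 4 were enriched and 0 depleted, with a median of 0.87. Over all tested genes the shares were 10.5% enriched and 8.30% depleted. Over the 58 genes, the rank correlation between coding length and log2 fold change was 0.78, against 0.09 for the noncoding part of the transcript. In the 10 members alone the noncoding part gave 0.42, beside 0.71 for coding length.

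**Figure D4:**
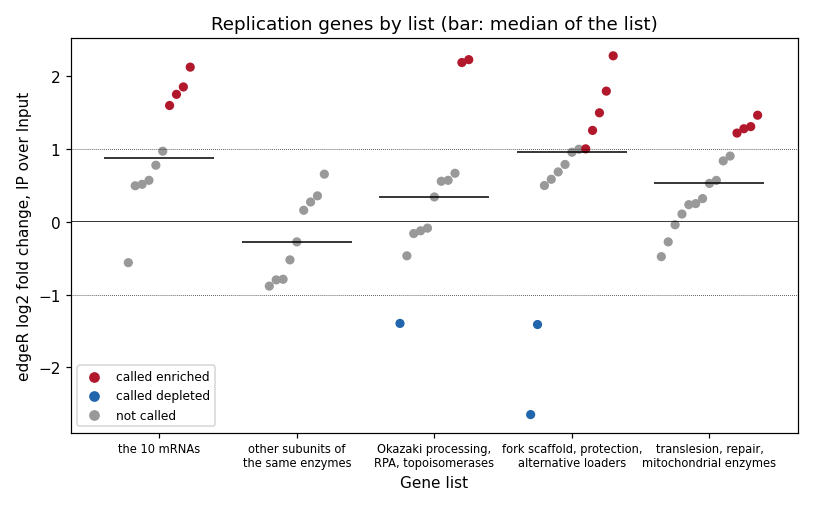
edgeR log2 fold change (IP over Input) of each gene of the 10 members and of the 4 lists of other replication genes; each point is a gene, coloured by its call, and the bar is the list's median. The members have no point called depleted, and the list of the other subunits of the same enzymes has no called gene in either direction.

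The IP libraries held 27483148 and 20280445 counts and the Input libraries 14677002 and 9213877, and the members' own counts ran from 289 to 15864. Reads carry no molecular identifiers, so the intervals cover counting error only. ORC1 itself had 23064 and 326098 counts in the IP and 5820 and 59163 in the Input. In TMM-scaled CPM its level was 16.7-fold (IP) and 15.2-fold (Input) higher in replicate 2. How reads of the codon-optimised plasmid were assigned to ORC1 is not stated. Its replicate log2 ratios were 1.73 and 1.87 and its log2 fold change was 1.87 ± 1.42 (adjusted p = 0.374), while the fit with the replicate block called it enriched at 1.80 (adjusted p = 3.16e-06). The part of this difference in the members' values was not tested, and their replicate ratios lay within 0.49 of each other. Of the colorectal epithelial markers, EPCAM was at 98.4 to 193 CPM, KRT8 at 974 to 2055 CPM and CDX2 at 8.87 to 11.1 CPM, while VIL1 had at most 5 counts. PTPRC, CD3E, PECAM1, COL1A2 and ALB, markers of other cell types, had 0 to 4 counts, and COL1A1 was at 7.90 to 26.7 CPM.

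The scaling between libraries decides where 0 lies. With library size alone, all log2 fold changes shifted by a median of -0.60, the split of all calls moved from 1542 enriched and 1215 depleted to 380 and 3257, and 3 members stayed enriched while POLE lay just under the fold criterion at 0.99. Under that scaling POLE2 was called depleted at -1.18 (adjusted p = 0.011), and POLA2, PRIM1 and PCNA took values just below 0, at -0.09, -0.03 and -0.11. Also with library size only, the list for Okazaki fragment processing had 2 enriched and 2 depleted genes and a median of -0.28. The fork scaffold list had 2 enriched and 2 depleted, with a median of 0.35. The list of translesion, repair and mitochondrial enzymes had 0 enriched and 1 depleted, with a median of -0.068. The differences within pairs above do not change with the scaling. When the test was made against a log2 fold change of 1 instead of 0 (edgeR's glmTreat), no member passed, with 4 at an unadjusted p below 0.05, and 0 genes of the whole table were enriched.

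**Figure D5:**
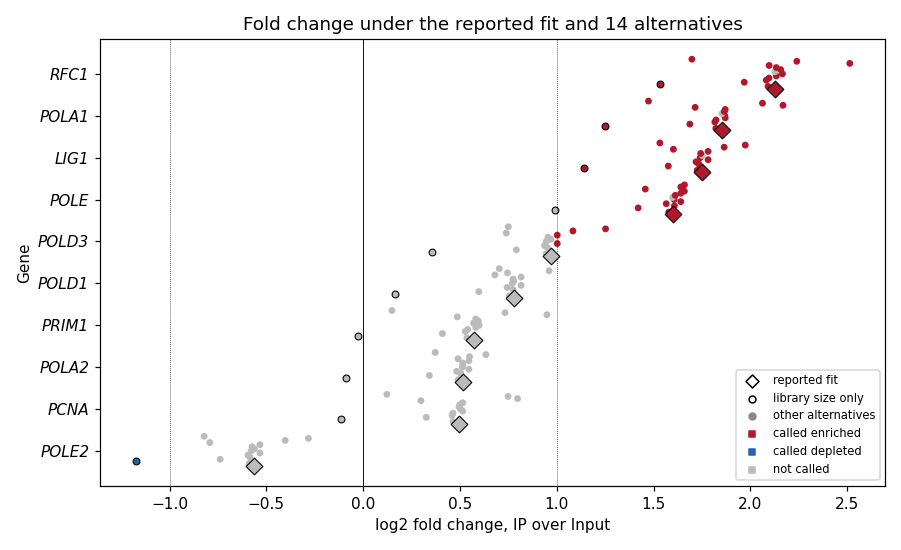
Log2 fold change of each member in the reported edgeR fit and in the 14 alternative fits, coloured by call, with diamonds for the reported fit, outlined circles for library size only and dotted lines at -1 and 1. Points of a gene are offset vertically only to keep them apart. RFC1, POLA1 and LIG1 stay above 1 in every fit shown, POLE dips to 0.99 with library size only, and POLD3 straddles 1.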

How the data were processed

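RNA was measured in 2 ORC1-FLAG IP and 2 Input libraries by stranded, ribosomal RNA-depleted RIP-seq. The values the authors deposited are raw counts per gene. Per the study's methods, Trimmomatic, STAR (genome hg19) and featureCounts produced them on an Ensembl annotation; its release and the strand and multi-mapping settings are not given in the sources used here. Gene models and transcript sequences came from GENCODE v44 on GRCh38, joined by gene identifier, and 380 of 14645 tested genes had no match. Coordinates are GRCh38 and coding lengths exclude the stop codon.

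edgeR 4.0.16 (R 4.3.3) was used with filterByExpr, TMM scaling (factors 0.758 and 0.868 for IP, 1.19 and 1.28 for Input), robust quasi-likelihood fits and group as the only term; the script was tested on simulated data. Same-numbered libraries deviated together across genes (r = 0.645), and the labels give each Input as that of its RIP replicate, so a replicate block was an alternative. The others were 3 scalings, 2 count filters, DESeq2 1.42.0 with 2 call rules, limma voom 3.58.1, glmTreat and leaving out each library. GAA motifs were counted on the sense strand of canonical transcripts. Members and gene lists were chosen with earlier results of these data known. The text names all 10 members, the 2 highest and 2 lowest tested genes of each list, ORC1, cell type markers, and neighbours or pseudogenes that could share reads. PRIM2 is also named, as the remaining subunit of the polymerase alpha-primase complex, and POLE4 for its call with library size only.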

Additional observations from a re-analysis of the deposited data

How the results depend on the processing

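Depth limits each replicate ratio of a member to a 95% counting half-width of 0.046 to 0.23 on the log2 scale. Of the 10 members, RFC1, POLA1 and LIG1 were called enriched in 13 of 14 alternative fits and POLE in 12. glmTreat called none of the 4 (adjusted p 0.0853 to 0.160), and POLE was also missed with library size only at 0.99. Over all genes glmTreat left 0 enriched and 1 depleted, although 913 were higher and 863 lower at an unadjusted p below 0.05. With library size only, all genes gave 380 enriched and 3257 depleted, the members gave 1 depleted (POLE2) and a median of 0.26, and POLA2 (-0.090), PRIM1 (-0.029) and PCNA (-0.11) turned below 0, none of them past the test in either fit. This shift follows from the scaling factors. Leaving out each library in turn gave 1291 to 1936 enriched and 846 to 1801 depleted genes, 4 to 5 members enriched, 0 depleted, and a member median of 0.71 to 1.11.

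With the replicate block, the pairing raised the calls over all genes to 1960 enriched and 1957 depleted and changed the enriched or depleted call of no member. The median of the members was 0.86. The other alternatives changed the call of POLD3 only, which DESeq2 called at 1.00.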
